A study of Homo sapiens with 6 samples.

Results

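Proline, asparagine, glutamine and cysteine can all be made inside a human cell, and 9 genes for enzymes of these routes were followed here: ALDH18A1, PYCR1, PYCR3, PRODH, ASNS, GLUL, CTH, CBS and AADAT. The array carried 17 probe sets (groups of probes read out as 1 signal) annotated to 1 of these genes and to no other, out of 54613 that were not controls. All 9 genes had at least 1. RNA came from Kasumi-1, an established acute myeloid leukaemia line with the RUNX1-RUNX1T1 fusion, grown in serum-containing medium. It was measured on 3 arrays after 24 h with vehicle and on 3 arrays after 24 h with 20 nM homoharringtonine (HHT), a plant alkaloid that blocks translation elongation. Whether the 3 arrays of a group came from separate cultures is not stated. The p-values therefore cover only the variation among these arrays, possibly technical, in 1 cell line. The series title ties HHT to the control of MYC.

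ALDH18A1 turns glutamate into the precursor of proline, PYCR1 (in mitochondria) and PYCR3 (in the cytosol) reduce that precursor to proline, and PRODH starts proline breakdown. ASNS makes asparagine from aspartate with glutamine as the nitrogen donor, and leukaemia cells with little of it depend on asparagine from outside, which is why asparaginase is used as a drug. GLUL makes glutamine from glutamate and ammonia. CBS joins homocysteine and serine to cystathionine and CTH cleaves this to cysteine, the route called transsulfuration. AADAT moves amino groups in the breakdown of lysine and of kynurenine. Several of these genes, ASNS above all, are textbook targets of ATF4, the transcription factor of the amino acid response, and MYC is known to raise the enzymes of proline synthesis.

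Messenger RNA of ALDH18A1, ASNS, AADAT and CTH fell after HHT, with log2 changes from -1.82 to -1.20, and PYCR3 lay below the level used as a filter on all HHT arrays. PYCR1 and GLUL were lower by less, and their calls depended on how the arrays were scaled. PRODH and CBS were too dim to be tested. Of the 9 genes 7 were tested, in 12 probe sets. PYCR3 passed the filter only through its vehicle arrays and is kept apart. The other 11 probe sets had both group means above the filter level, 4.80, and all 11 were called lower in HHT as deposited, at an adjusted p under 0.05 by limma with Benjamini-Hochberg adjustment over 32768 probe sets. Over all probe sets tested, 23.3% were called lower and 23.0% higher. On these 11 probe sets no HHT array reached the lowest vehicle array, which held for 29.4% of all tested probe sets and, at 1 probe set a gene, for 29.0% of genes. A log2 change of at least 1 besides the adjusted p was met by 6 of the 11 (7.42% of all tested probe sets, lower) and by 4 of their 6 genes (5.94% of all genes). All 6 genes were called lower, beside 24.2% of all 13572 genes tested. Their median change was -1.31, and that of all genes was 0.

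**Figure D1:**
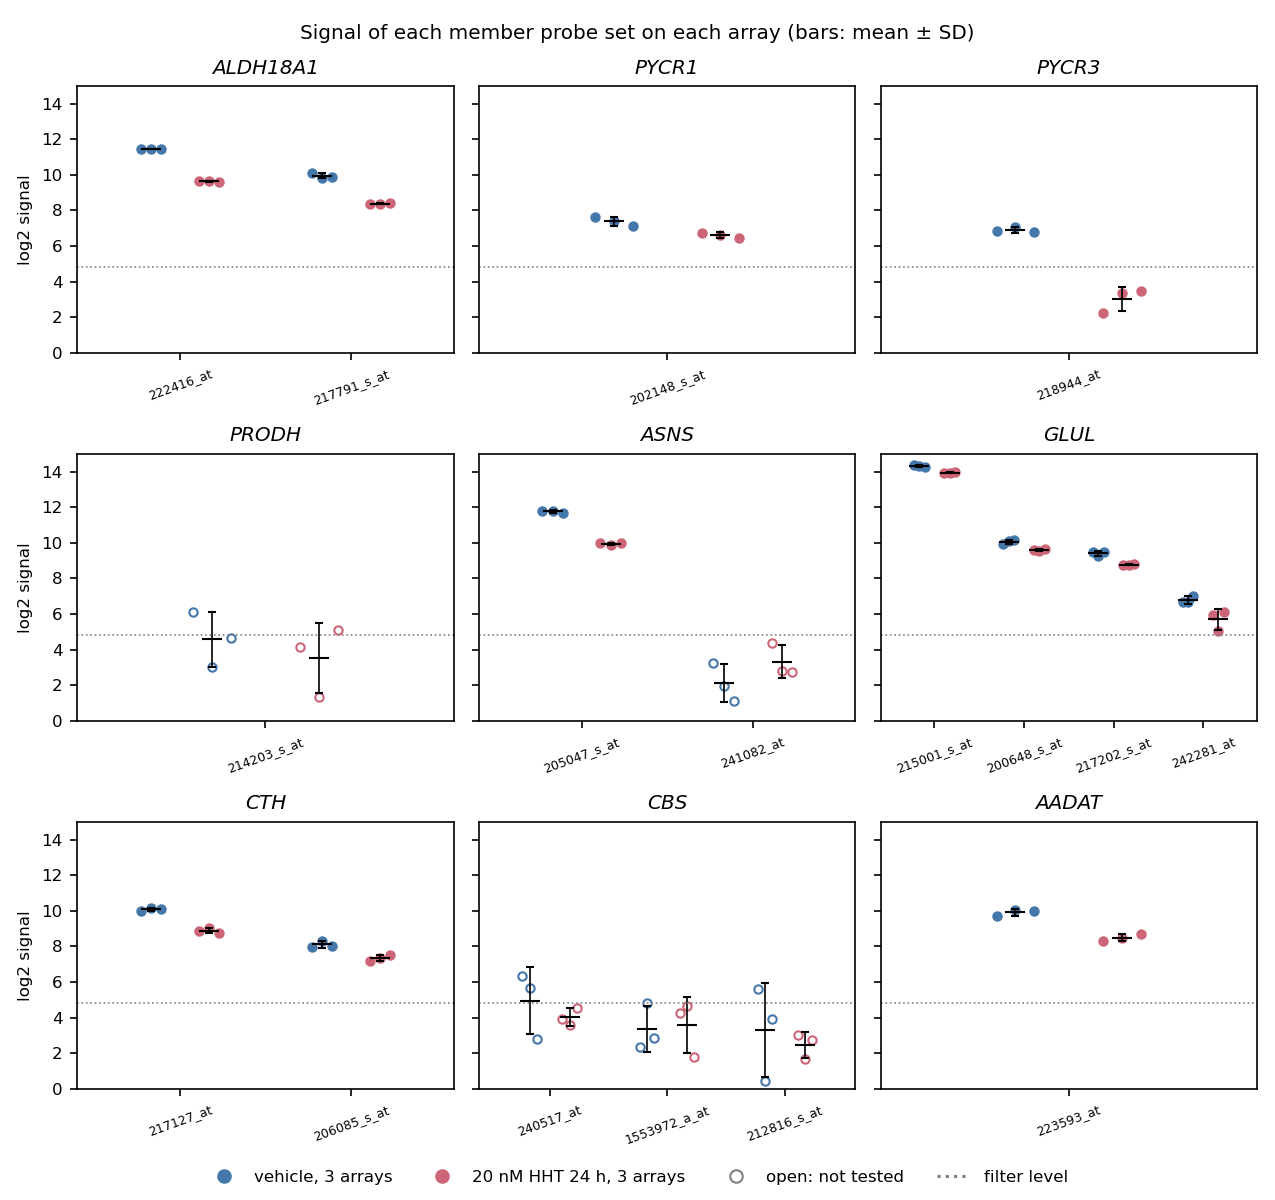
Log2 signal of each member probe set on each array, 1 panel a gene, with vehicle in blue and HHT in red; bars are the mean and SD of 3 arrays and the dotted line is the filter level, 4.80. The filled HHT points lie below the filled vehicle points in each tested probe set, and the open points of PRODH, CBS and the dim ASNS probe set scatter around or below the dotted line.

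The array medians were lower in HHT (5.53 to 5.77) than in vehicle (5.82 to 5.96), and so were the means of the 18 hybridisation control probe sets (11.63 to 11.75 against 11.96 to 12.01). Setting the arrays to equal medians moved the median of all genes to 0.24, and setting them to equal hybridisation controls moved it to 0.28, so each change shifts up by that amount and its distance from the median gene stays as it was. Under these scalings 12.7% and 12.8% of all genes were called lower, and 37.3% and 41.6% higher. Without PYCR3, 4 of 6 member genes were called lower under each, ALDH18A1, ASNS, AADAT and CTH. Quantile normalization called 5 of the 6, all but GLUL, beside 22.9% of all genes. Signals of 8 markers of the blast itself lay above the filter level in both groups and went both ways, with lower means in HHT for KIT (14.83 and 14.22), MPO (14.39 and 12.63) and CD34 (9.20 and 8.03), higher ones for PTPRC (12.43 and 13.20) and CEBPA (8.46 and 9.20), and RUNX1T1 nearly level (13.23 and 13.20). Their summed signal, on the linear scale, was 64344 to 71636 in vehicle and 44542 to 46085 in HHT. Of 18 markers of T, B, erythroid, fibroblast and epithelial cells, CD3D (11.62 and 11.76) and EPCAM (13.69 and 12.93) exceeded 10 in both groups, and 3 lay below the filter level in both. Summed signals of the T and NK list were 3205 to 3312 in vehicle and 3473 to 3927 in HHT, of the B cell list 646 to 730 and 1006 to 1142, of the erythroid list 87.0 to 168 and 67.4 to 106, of the fibroblast list 239 to 392 and 167 to 275, and of the epithelial list, nearly all EPCAM, 13030 to 13453 and 7439 to 8297. The part of these shifts in the results was not tested. In RNA from a whole culture, fewer cells with a transcript and less of it per cell cannot be told apart.

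The first step of proline synthesis was clearly lower. ALDH18A1 was read by a pair of probe sets. The brighter one, 222416_at, gave 11.45, 11.48 and 11.47 on the vehicle arrays and 9.64, 9.68 and 9.61 on the HHT arrays. The groups lie far apart, by 1.77 between the lowest vehicle and the highest HHT array, and the replicates of each are nearly the same. ALDH18A1 fell by 1.82 (SE 0.0680, 95% confidence interval -1.98 to -1.67, adjusted p = 3.33e-08, limma), a 3.54-fold lower signal, in 3 of 3 HHT arrays. A larger fall was seen in 140 of 13572 genes, or 1.03%. The second probe set, 217791_s_at, gave 10.11, 9.84 and 9.90 in vehicle and 8.35, 8.35 and 8.40 in HHT. It fell by 1.59 (SE 0.105, adjusted p = 8.34e-07, limma), so both readings of the gene give a change of similar size. With equal hybridisation controls the values were -1.54 and -1.30, both called.

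PYCR1 and PYCR3 act on the same precursor, and their signals moved by different amounts. PYCR1, at probe set 202148_s_at, gave 7.61, 7.41 and 7.14 in vehicle and 6.76, 6.63 and 6.46 in HHT. The groups do not overlap, but the gap between them, 0.38, is close to the spread among the vehicle arrays. PYCR1 fell by 0.77 as deposited (SE 0.212, 95% confidence interval -1.24 to -0.30, adjusted p = 0.0120, limma), 1.71-fold. That call was lost when the arrays were set to equal medians (-0.53, adjusted p = 0.0567). It was lost again on the scale of the hybridisation controls (-0.49, adjusted p = 0.109). PYCR3, at probe set 218944_at, gave 6.84, 7.07 and 6.78 in vehicle and 2.25, 3.36 and 3.45 in HHT. Each HHT array lies below the filter level, where signals of replicates differ widely. With each HHT signal set to that level, PYCR3 was 4.29-fold lower in HHT. This is a description with no test, since its vehicle arrays alone let it pass the filter. The level is a filter and not a detection limit, so 4.29 is no firm bound. With a pseudocount of 64 PYCR3 changed by -1.34. When single arrays were left out it passed the filter in 3 of 6 fits, those lacking an HHT array, and missed it whenever a vehicle array was lacking.

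PRODH, the opposing enzyme, had 1 probe set, 214203_s_at, which was not tested. Its signals were 6.10, 3.00 and 4.64 in vehicle and 4.17, 1.31 and 5.08 in HHT. They overlap, and the spread within a group exceeds the difference between the means, 4.58 ± 1.55 and 3.52 ± 1.97 (SD, n = 3). With no filter it differed by -1.06 (SE 1.11, adjusted p = 0.567, limma), an error too wide to tell a fall from a rise. Transcripts that feed or drain the same pool are described with the neighbouring enzymes.

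ASNS fell as far as ALDH18A1. Probe set 205047_s_at gave 11.81, 11.82 and 11.69 in vehicle and 9.99, 9.88 and 9.98 in HHT. The replicates lie close together and the groups were 1.70 apart at their nearest arrays. ASNS fell by 1.82 (SE 0.0716, 95% confidence interval -1.98 to -1.66, adjusted p = 3.96e-08, limma), 3.54-fold, and 141 of 13572 genes (1.04%) fell further. Its change was -1.58 at equal medians, -1.89 by quantile normalization and -1.54 on the hybridisation control scale, and each was called. The other ASNS probe set, 241082_at, was below the filter level on every array, at 1.13 to 3.26 in vehicle and 2.75 to 4.40 in HHT, and was not tested. RefSeq lists pseudogenes of ASNS and of GLUL, and a name ending in _s_at marks probes shared by several transcripts, so reads of such copies in these signals are uncertain.

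The stretches upstream of the members' transcription starts were searched on both strands for TGATGNAA, a core to which ATF4 binds with C/EBP partners. They were also searched for CACGTG, the E-box to which MYC binds with MAX. RefSeq promoters (GRCh38.p14, from 250 bases before to 50 after a start) were given for 6 of the genes, with 12 starts between them, and not for PYCR1, PYCR3 or PRODH. The 250 bases before a start are shown for ASNS and ALDH18A1, which fell by 1.82 each and each hold 1 match (in capitals), and for CTH, which holds neither. The minus strand of chr7:97872409-97872658, the minus strand of chr10:95656712-95656961 and the plus strand of chr1:70411018-70411267 read as follows, 5′ to 3′.
ASNS: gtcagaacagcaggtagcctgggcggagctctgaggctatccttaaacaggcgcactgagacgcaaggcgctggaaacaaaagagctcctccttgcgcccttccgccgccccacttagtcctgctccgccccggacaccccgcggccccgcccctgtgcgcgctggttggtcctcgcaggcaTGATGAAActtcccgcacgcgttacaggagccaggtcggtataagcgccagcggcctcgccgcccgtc
ALDH18A1: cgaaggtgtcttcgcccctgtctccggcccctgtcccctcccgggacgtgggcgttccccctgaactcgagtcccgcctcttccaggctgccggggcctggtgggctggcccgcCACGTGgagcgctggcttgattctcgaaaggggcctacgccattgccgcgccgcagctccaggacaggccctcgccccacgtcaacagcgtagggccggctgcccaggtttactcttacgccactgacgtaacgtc
CTH: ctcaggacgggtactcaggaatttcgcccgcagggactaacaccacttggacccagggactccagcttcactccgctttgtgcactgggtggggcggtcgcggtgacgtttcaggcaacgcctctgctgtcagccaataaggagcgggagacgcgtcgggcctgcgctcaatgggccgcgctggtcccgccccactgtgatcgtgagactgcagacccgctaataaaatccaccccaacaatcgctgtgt

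The TGATGNAA match of ASNS lies at -68 to -61 from that start, and the CACGTG match of ALDH18A1 at -136 to -131. No other of the 12 member promoters held TGATGNAA, which 3.62% of all 35116 promoters of this length hold. CACGTG was likewise found in 1 of the 12, close to its share of all promoters, 7.26%. By gene, each motif was held by 1 of the 6 members, beside 4.46% (TGATGNAA) and 8.77% (CACGTG) of all genes. With so few promoters these counts give no result about the members. The motifs do not overlap each other. A match describes letters only, and the promoters of CTH, AADAT, GLUL and CBS, which hold neither motif in these windows, belong to genes that fell as well as to CBS, which was not tested.

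GLUL, the enzyme that makes glutamine, behaved unlike ASNS. It was read by 4 probe sets. The brightest, 215001_s_at, gave 14.40, 14.33 and 14.27 in vehicle and 13.95, 13.94 and 13.96 in HHT. Its groups do not overlap, yet the step is small. As deposited it fell by 0.38 (SE 0.0507, 95% confidence interval -0.50 to -0.27, adjusted p = 0.000108, limma), 1.30-fold. No other scaling called it. The change was -0.14 at equal medians (adjusted p = 0.252), -0.099 on the scale of the hybridisation controls (adjusted p = 0.248) and -0.0067 by quantile normalization (adjusted p = 0.908). The 411 other probe sets whose vehicle mean lay within 0.5 of it had a median change of -0.40, and 52.6% of them fell further, so the lower signal was shared by probe sets of that brightness. The next pair, 200648_s_at and 217202_s_at, went from 10.06 ± 0.115 to 9.61 ± 0.0625 and from 9.41 ± 0.140 to 8.78 ± 0.0401 (SD, n = 3). They fell by 0.45 (SE 0.0906) and 0.63 (SE 0.107), where probe sets of like vehicle signal had medians of 0.081 and 0.054. The first of them lost its call at equal medians (-0.22, adjusted p = 0.237) and on the scale of the hybridisation controls (-0.17, adjusted p = 0.189), and the second was called under all 3 other scalings. The dimmest, 242281_at, gave 6.66, 6.67 and 7.04 in vehicle and 5.95, 5.03 and 6.11 in HHT. It fell by 1.09 (SE 0.343, adjusted p = 0.0232, limma), a call lost without vehicle replicate 3 (adjusted p = 0.0811) and without HHT replicate 2 (adjusted p = 0.0727). It was lost too at equal medians (-0.85, adjusted p = 0.0636) and on the hybridisation control scale (-0.81, adjusted p = 0.0774). All 4 GLUL readings were thus lower as deposited, and 1 of them was called under each scaling.

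**Figure D2:**
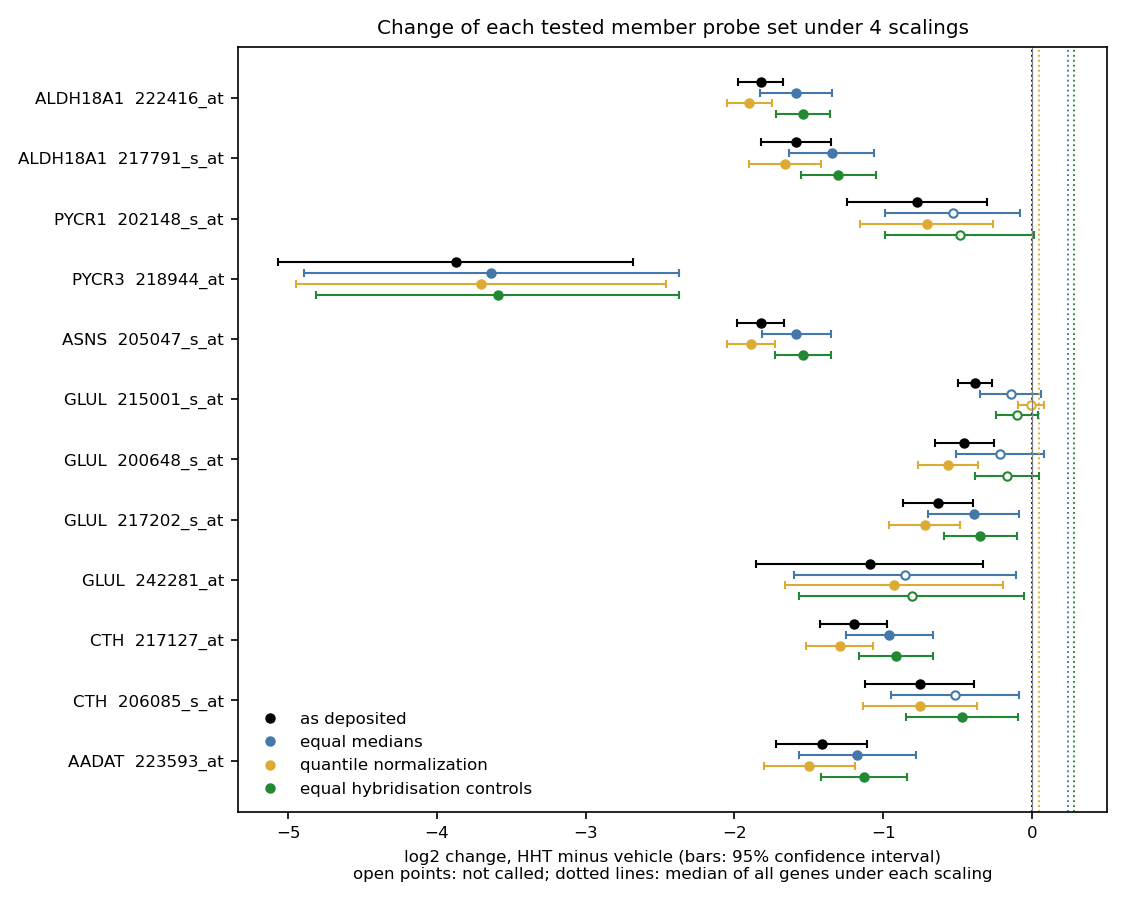
Log2 change (HHT minus vehicle) of the 12 tested probe sets under 4 scalings of the arrays, with 95% confidence intervals; filled points were called, open points were not, and dotted lines give the median of all genes under each scaling. ALDH18A1, ASNS, AADAT and the brighter CTH probe set were called under all 4, while PYCR1 and GLUL have open points; PYCR3 is drawn as fitted, with HHT signals below the filter level.

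In transsulfuration, CTH fell and CBS could not be judged. The brighter CTH probe set, 217127_at, gave 9.98, 10.17 and 10.11 in vehicle and 8.87, 9.02 and 8.77 in HHT. It fell by 1.20 (SE 0.101, 95% confidence interval -1.42 to -0.97, adjusted p = 4.23e-06, limma), 2.29-fold, and 4.97% of genes fell further. The dimmer one, 206085_s_at, gave 7.98, 8.32 and 8.05 in vehicle and 7.19, 7.37 and 7.51 in HHT. It fell by 0.76 (SE 0.166, adjusted p = 0.00335, limma). This smaller change was not called at equal medians (-0.52, adjusted p = 0.0516), and was on the scale of the hybridisation controls (-0.47, adjusted p = 0.0413). Within an array the brighter probe set exceeded the dimmer by 1.97 ± 0.105 in vehicle and 1.53 ± 0.234 in HHT (SD, n = 3), so the pair differ in the size of the fall by 0.44, and this difference was not tested.

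CBS had 3 probe sets, none of which passed the filter. The brightest, 240517_at, gave 6.35, 5.68 and 2.80 in vehicle and 3.91, 3.59 and 4.56 in HHT. The other 2 ranged from 0.42 to 5.58 in vehicle and from 1.65 to 4.68 in HHT. In each the groups overlap. With no filter the 3 differed by -0.93 (SE 0.916), 0.21 (SE 1.04) and -0.83 (SE 1.23), with adjusted p from 0.541 to 0.921 (limma), so neither a fall nor a rise of the size seen in CTH can be told at this signal. RefSeq carries CBSL, the name of a near-identical copy, as a synonym of CBS.

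AADAT, with a role in both lysine and kynurenine breakdown, fell as well. Its probe set 223593_at gave 9.69, 10.04 and 10.01 in vehicle and 8.30, 8.47 and 8.72 in HHT. The nearest arrays of the groups are 0.97 apart, more than the spread within either. AADAT fell by 1.41 (SE 0.137, 95% confidence interval -1.72 to -1.11, adjusted p = 1.12e-05, limma), 2.67-fold, and 2.90% of genes fell further. The call held under the 3 other scalings, at -1.18, -1.50 and -1.13.

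Set against probe sets of similar brightness, the members differed in how far out they lay. Among 2431 probe sets with a vehicle mean within 0.5 of that of ALDH18A1 222416_at, the median change was -0.010 and 1.15% fell further. For ASNS the median of 2156 such probe sets was -0.056 and 1.30% fell further. For AADAT 3.23% and for the brighter CTH probe set 4.59% fell further, at medians of 0.072 and 0.091. PYCR1 had 16.99% of 4472 neighbours in signal below it, so a fall of its size was common at that brightness.

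**Figure D3:**
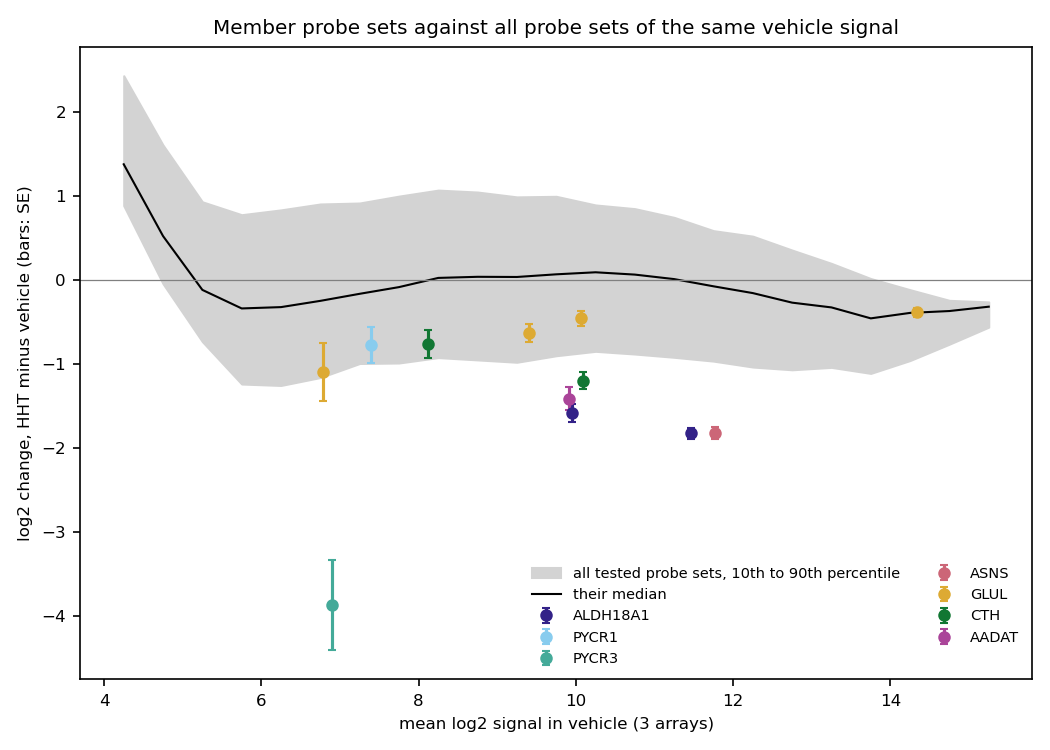
Log2 change (bars: SE) of each tested member probe set against its mean vehicle signal; the grey band spans the 10th to 90th percentile of all tested probe sets in steps of 0.5 and the black line is their median. ALDH18A1, ASNS, AADAT and the brighter CTH point lie below the band, and the brightest GLUL point lies on the median line. PYCR3, drawn as fitted with HHT signals below the filter level, lies far below the band. At the left edge the band is raised because probe sets dim in vehicle pass the filter only when bright in HHT.

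Differences between 2 genes of the same array do not depend on a shift of whole arrays, and 3 pairs could be formed. ASNS minus GLUL was -2.59, -2.52 and -2.58 in vehicle and -3.97, -4.05 and -3.98 in HHT. The difference changed by -1.44, a 2.71-fold larger fall of ASNS than of the brightest GLUL probe set. That probe set had the smallest fall among those of GLUL. Probe sets of its vehicle signal had a median change of -0.40, and those of the ASNS signal -0.056, which a within-array difference does not remove. With the mean of the GLUL probe sets the change, given below, was smaller. ALDH18A1 minus OAT, the enzyme that links ornithine to the same precursor, was -1.61, -1.49 and -1.39 in vehicle and -2.38, -2.36 and -2.45 in HHT. It changed by -0.90, so ALDH18A1 fell further than OAT. PYCR1 minus PYCR3 was 0.78, 0.34 and 0.37 in vehicle and 4.51, 3.27 and 3.01 in HHT, but PYCR3 was below the filter level in HHT, so this change of 3.10 has no firm size. For ASNS minus GLUL and for ALDH18A1 minus OAT the groups do not overlap. The exact permutation test gave p = 0.1 for each (two-sided, n = 3 against 3, adjusted p = 0.1 over the 3 pairs), the smallest that this design allows. PYCR1 minus PYCR3 is counted among the 3 pairs of the adjustment, but its p is not used. The vehicle arrays alone let PYCR3 pass the filter, so the values of that pair are a description.

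**Figure D4:**
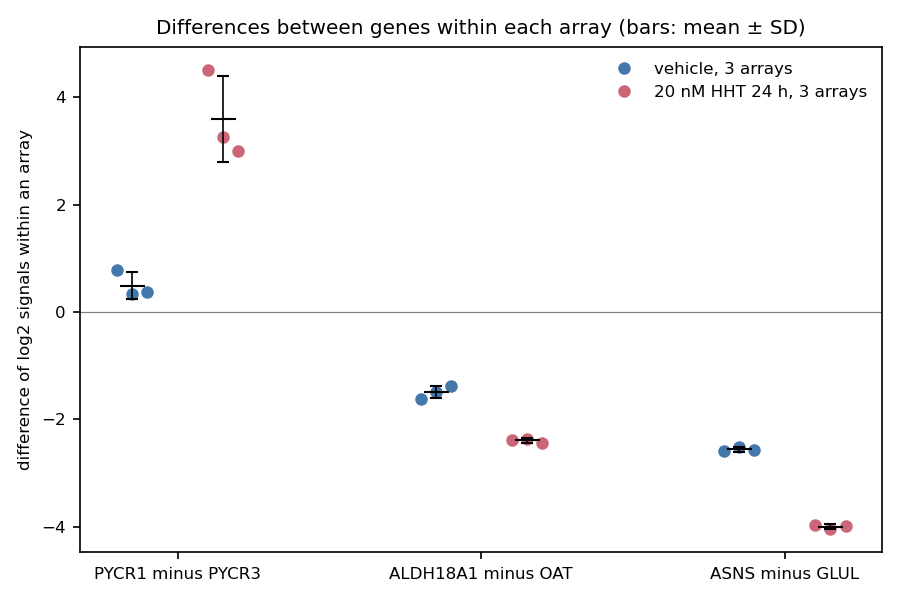
Difference of the log2 signals of 2 genes on the same array for 3 pairs, with vehicle in blue and HHT in red; bars are the mean and SD of 3 arrays. ASNS minus GLUL and ALDH18A1 minus OAT are lower on all 3 HHT arrays, by 1.44 and 0.90 in the means, and PYCR1 minus PYCR3 is higher.

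Enzymes around proline, ornithine and arginine were lower or not called. Of 11 measured, 5 were called lower (24.2% of all genes were) and none higher (29.6% were), with a median of -0.46. With equal hybridisation controls 4 were lower and 2 higher, beside 12.8% and 41.6% of all genes. GATM, which makes the creatine precursor from arginine, fell by 2.51 (SE 0.155), from 11.41 ± 0.288 to 8.91 ± 0.250 (SD, n = 3), and another GATM probe set changed by -2.03 and was called, while a dim one, at -0.38, was not called. OAT fell by 0.93 (SE 0.0636) and the mitochondrial ornithine carrier SLC25A15 by 0.91 (SE 0.0901). ODC1, which starts polyamine synthesis from ornithine, fell by 0.74 (SE 0.0608), from 14.43 ± 0.0967 to 13.69 ± 0.0648.

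Among 16 enzymes that make or use glutamate, glutamine and aspartate, 9 were called lower and 2 higher (24.2% and 29.6% of all genes), with a median of -0.42. On the hybridisation control scale 7 were lower and 4 higher (12.8% and 41.6% of all genes). PFAS, a glutamine-dependent enzyme of purine synthesis, fell by 2.90 (SE 0.0834), from 11.44 ± 0.101 to 8.54 ± 0.0171. PSAT1 of serine synthesis fell by 1.88 (SE 0.0513), from 14.13 ± 0.0221 to 12.25 ± 0.0503. CAD, which starts pyrimidine synthesis from glutamine, fell by 1.42 (SE 0.145). ASRGL1, which releases aspartate from asparagine, rose by 1.20 (SE 0.0896), from 9.39 ± 0.136 to 10.60 ± 0.0240, and its second probe set rose by 0.98. ASNS and ASRGL1, one making and one splitting asparagine, thus moved in opposite directions, also under the other 3 scalings.

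The methionine cycle supplies homocysteine to CBS. Of 21 measured genes of methionine, cysteine and glutathione metabolism, 7 were called lower and 6 higher, with a median of -0.077, which is near the shares of all genes (24.2% and 29.6%). On the hybridisation control scale 4 were lower and 10 higher, beside 12.8% and 41.6% of all genes. MAT2A, which makes S-adenosylmethionine, fell by 2.16 (SE 0.0556), from 13.47 ± 0.0577 to 11.31 ± 0.0145. AHCY, which yields homocysteine, fell by 1.36 (SE 0.0812), from 12.65 ± 0.147 to 11.28 ± 0.0825. SLC7A11, the importer of cystine, fell by 1.09 (SE 0.0916), and of its other probe sets 1 fell by 0.75 and 1, at -0.11, was not called. SQOR, which oxidises sulfide in mitochondria, rose by 1.00 (SE 0.145). The members CTH and the genes MAT2A, AHCY and SLC7A11 were lower under all 4 scalings at the probe sets named, CTH at its brighter one.

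Around AADAT, of 13 measured genes of lysine and tryptophan breakdown 3 were called lower and 4 higher, with a median of 0.012. These counts are close to the shares of all genes, 24.2% and 29.6%, and so give no result about the list. On the hybridisation control scale 2 were lower and 6 higher (12.8% and 41.6% of all genes). GCDH, which acts late in lysine breakdown, fell by 0.73 (SE 0.105). AASDH rose by 1.66 (SE 0.1003), from 9.79 ± 0.136 to 11.46 ± 0.160. QPRT, which leads from tryptophan towards NAD, rose by 0.73 (SE 0.105), though a second one, at 0.21, missed the threshold. KYAT3, another kynurenine aminotransferase, rose by 0.66 (SE 0.0606), from 11.56 ± 0.0605 to 12.22 ± 0.0434. AADAT and KYAT3 share the reaction on kynurenine, and their transcripts changed in opposite directions.

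**Figure D5:**
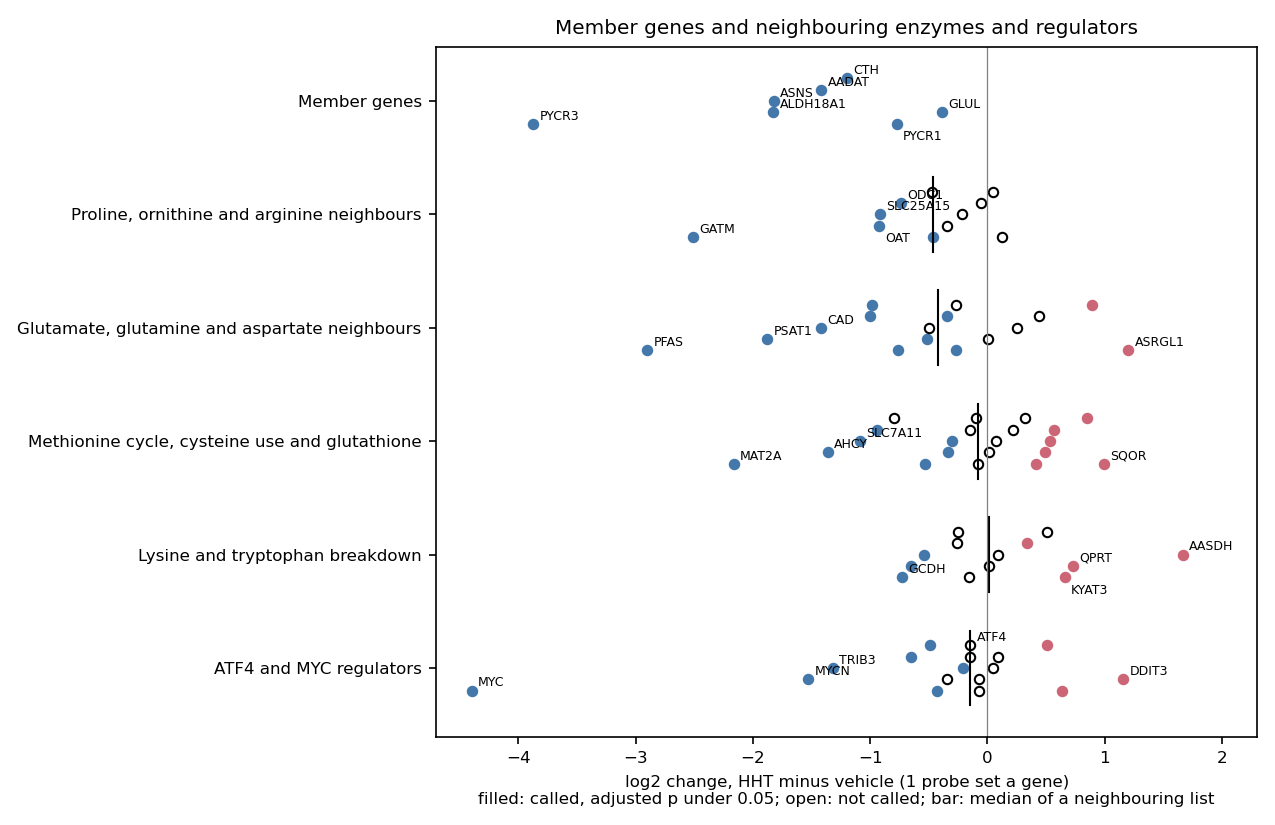
Log2 change of the 7 tested member genes and of 78 neighbouring genes in 5 lists, 1 probe set a gene; filled points were called (blue lower, red higher), open points were not, and bars are the medians of the lists. Without PYCR3 the members lie between -1.82 and -0.38. PYCR3 is drawn as fitted, at -3.87, but its HHT signals lie below the filter level and its vehicle arrays alone let it pass. The lists spread to both sides of 0 apart from the proline, ornithine and arginine list, where the points right of 0 are open.

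Of the regulators listed, MYC and MYCN fell and ATF4 was not called. Of 17 measured, 7 were called lower and 3 higher (24.2% and 29.6% of all genes), with a median of -0.15. Under either of the scalings by medians or hybridisation controls 4 were lower and 5 higher, beside 12.7% or 12.8% of all genes lower and 37.3% or 41.6% higher. MYC gave 14.15, 14.14 and 14.16 in vehicle and 9.53, 9.75 and 9.97 in HHT, far below every vehicle array. MYCN fell by 1.53 (SE 0.0666), though its dim second probe set, at -0.074, was not called. ATF4 gave 14.02, 14.23 and 14.03 in vehicle and 13.92, 13.93 and 14.00 in HHT. It differed by -0.15 (SE 0.0636, adjusted p = 0.0843, limma), with the sign turned under the other 3 scalings, where quantile normalization called it higher (0.21, adjusted p = 0.0205). It was called lower with array weights (-0.17, adjusted p = 0.0406) and without vehicle replicate 1 (-0.18, adjusted p = 0.0389). TRIB3, a target of ATF4 that restrains it, fell by 1.32 (SE 0.0874), from 11.96 ± 0.147 to 10.65 ± 0.103. DDIT3, another target, rose by 1.16 (SE 0.120), from 10.25 ± 0.249 to 11.40 ± 0.136. ASNS and TRIB3 were thus lower while DDIT3 was higher on the same arrays, under all 4 scalings.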

How the data were processed

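The authors deposited 1 log2 signal per probe set and array, and their processing notes name MAS5 with no version given. The trimmed mean of the antilog values was 500.06 to 500.07 on every array, and no 2 arrays were identical. No detection calls, scan dates or genome build are given in the sources used here. The 62 control probe sets were left out, and the 40% of the other 54613 with the lowest mean over 6 arrays (level 4.80) were not tested. Genes were named through the platform annotation, updated by Entrez ID with RefSeq (41037 of 41091 single-gene probe sets matched, while 1801 name several genes and 11721 none), and represented by their brightest probe set. HHT was tested against vehicle by limma 3.58.1 under R 4.3.3 (lmFit, eBayes with trend), Benjamini-Hochberg over all probe sets tested, called at an adjusted p under 0.05; "fell" and "rose" are used for called genes. Array number limits the precision. On simulated data, where only 100 log2 changes of 1 and 100 of 2 were set, the test recovered 40% and 66% of them. It called 4 unchanged probe sets out of 32768 tested. In the real data 23.3% of tested probe sets were called lower and 23.0% higher, which makes the adjusted p cut a different one. The simulated figures thus give neither the recovery nor the number of false calls in these data. A gene that was not called can still have changed. The members, 5 neighbouring lists (99 genes, of which 21 were not analysed here) and tests were chosen with earlier results of these data known. Named were all members, the 4 called genes of each list with the largest change, and some genes chosen by name, of which MYC, ATF4, OAT and SLC7A11 are reported here. Alternatives were pseudocounts, scalings, filters, variance models, array weights, thresholds, a replicate block, means of probe sets and leaving out each array. The sources do not state a pairing by replicate number, and the main test used none.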

Additional observations from a re-analysis of the deposited data

How the results depend on the processing

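Without PYCR3, 6 of 6 member genes were called lower as deposited, 4 with equal medians, 5 by quantile normalization and 4 with equal hybridisation controls. The shares of all genes were 24.2%, 12.7%, 22.9% and 12.8%. PYCR3 passed the filter only through its vehicle arrays. With it counted, 7 member genes were called lower as deposited and 5 to 7 under the alternatives, with none called higher under any. Of the 11 member probe sets without PYCR3, 11 were called lower as deposited, beside 23.3% of all tested probe sets. With a log2 change of at least 1 also required 6 were, beside 7.42%. With PYCR3 counted, 12 were called lower as deposited, 7 with equal medians and 7 at that log2 threshold. The others gave 10 or more except equal hybridisation controls (8). Of the values of member probe sets under alternatives, those of PYCR3 included, 211 kept direction and call, 19 lost the call and none turned sign. With a log2 change of at least 1 also required, 1 of 11 genes was lower and 0 higher in the proline, ornithine and arginine list. In the glutamate, glutamine and aspartate list 3 of 16 were lower and 1 higher. In the methionine, cysteine and glutathione list 3 of 21 were lower and 0 higher. The lysine and tryptophan list had 0 of 13 lower and 1 higher, and the regulators 3 of 17 lower and 1 higher. Of all genes 5.94% were lower at this threshold, and the share higher was not counted. With equal medians, 4 were called lower and 1 higher (proline), 7 and 3 (glutamate) and 4 and 8 (methionine). They were 2 lower and 6 higher (lysine) and 4 and 5 (regulators), beside 12.7% and 37.3% of all genes. With equal hybridisation controls, 4 were called lower and 2 higher (proline), 7 and 4 (glutamate) and 4 and 10 (methionine). They were 2 lower and 6 higher (lysine) and 4 and 5 (regulators), beside 12.8% and 41.6% of all genes. ATF4 turned sign with equal medians (0.093), quantile normalization (0.21) and equal hybridisation controls (0.14). From the means of a gene's probe sets, the within-array change was -0.78 for ALDH18A1 minus OAT and -1.18 for ASNS minus GLUL. Equal medians and equal hybridisation controls shift every signal of an array by 1 amount; the cause of the other changes, quantile normalization included, was not tested. PYCR3 changed by -1.34 with a pseudocount of 64 and did not pass the 60% filter. The replicate block called the same number of member probe sets, 12 with PYCR3 counted. Deviations of same-numbered arrays correlated at -0.014 to 0.065, and those of the other array pairs at -0.089 to 0.042. This neither shows nor excludes a pairing, which is not stated, and the block is reported only here. Leaving out single arrays gave 11 to 12 member probe sets called lower, PYCR3 counted where it passed the filter. Within-array changes were then 2.65 to 3.40 (PYCR1 minus PYCR3), -0.96 to -0.84 (ALDH18A1 minus OAT) and -1.46 to -1.41 (ASNS minus GLUL). Pairs with PRODH or CBS were not run, as those genes were not tested. Signals near or below 4.80 limit what can be said of PRODH, CBS and PYCR3.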

Other observations

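Some neighbouring genes outside the rule for named genes were singled out after their values were seen. CDO1, which oxidises cysteine, rose by 0.85 (SE 0.0701), from 10.10 ± 0.0296 to 10.95 ± 0.0475 (SD, n = 3), and GSS, the last enzyme of glutathione synthesis, rose by 0.57 (SE 0.0645), while the subunits of its first enzyme, GCLC (-0.077) and GCLM (0.075), were not called; with equal hybridisation controls GCLM was called higher (0.36). A dim second CDO1 probe set, at 0.016, was not called. GAD1, which makes the transmitter GABA from glutamate, rose by 0.89 (SE 0.111) at 1 probe set, and its other 2, at 0.13 and 0.12, were not called. MTRR, which reactivates methionine synthase, fell by 0.94 (SE 0.0719), and CTPS1 and PPAT, both glutamine-dependent enzymes of nucleotide synthesis, fell by 1.00 (SE 0.0697) and 0.98 (SE 0.0767).

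Probe sets of 1 gene could differ in call or direction, as in the following examples. GMPS fell by 0.51 (SE 0.0551) and 0.70 (SE 0.0652) at 2 probe sets and rose by 0.41 (SE 0.0953) at the dimmest. EIF2AK4, the kinase that senses uncharged tRNA, was at -0.067 (SE 0.0987) in its brightest probe set and fell by 1.72 (SE 0.316) at another. KYNU was at 0.012, -0.019 and -0.099 at 3 probe sets. A dim one differed by -1.84, with means of 5.78 in vehicle and 3.95 in HHT. It passed the filter only through its vehicle arrays, so this value is a description with no test.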
